A study of Mus musculus with 24 samples.

Results

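The 35 genes described here encode the folding, quality control and early export machinery of the endoplasmic reticulum (ER). They were taken by name from the array annotation, with 1 probe per gene, the one with the highest mean scanned Cy5 signal over all arrays. They are 35 of 37074 gene names on the array and of 18649 genes that passed the filter on dim signal, which all 35 did. Each was well above background on 24 of 24 arrays and saturated on none. The right liver lobe came from 24 individually housed C57BL/6JRcc mice, labelled female, fed 1 of 2 semi-synthetic diets for the 3 weeks after weaning and taken at 6 weeks of age, food-deprived, in the light phase. Both diets drew 16% of energy from fat, 20% from protein, 32% from starch and 32% from monosaccharides. The monosaccharide was glucose in the GLU group (12 mice) and glucose with galactose at 1:1 in the GLU+GAL group (12 mice). Each value is a log2 ratio of the Cy5-labelled RNA of a mouse over a Cy3-labelled pool made from all mice, so 0 is the level of the pool. It sets mice against each other for 1 gene and does not compare the levels of different genes.

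The hepatocyte makes most plasma proteins, and each of them enters the ER through the Sec61 channel, loses its signal peptide, folds with the help of chaperones and leaves in COPII vesicles. Chains that fail to fold are pulled back to the cytosol and degraded, a route called ER-associated degradation (ERAD). When unfolded chains accumulate, the sensors Ern1 (IRE1), Atf6 and PERK start the unfolded protein response (UPR), in which cleaved Atf6 and the factor made from spliced Xbp1 messenger RNA induce chaperone, ERAD and export genes. Hspa5 (BiP), the main Hsp70 chaperone of the ER lumen, is the gene most often used to read this response. The array probes measure total messenger RNA of a gene and do not separate spliced from unspliced Xbp1.

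Because many of these genes are known targets of the UPR and all were examined here for moving together, the bases before the start sites of 6 of them are shown. They come from a RefSeq table of windows around gene starts (GRCm38.p6), which held 29 of the 35 genes. Hyou1, Manf, Atf6, Derl1, Sec61a1 and Sec11c were not matched. Each stretch has 150 bases from the part before the start site, 5′ to 3′ on the strand of the gene. Capitals mark a match, on either strand, to the ER stress response element (ERSE), spelled CCAAT and CCACG with 9 bases between, or, for Herpud1, to ERSE-II, spelled ATTGG and CCACG with 1 base between. The 2 elements share the letters CCACG, and no window of the 29 held both. The stretches lie at chr2:34771940-34772089 (plus strand) for Hspa5, chr10:86705517-86705666 (minus strand) for Hsp90b1, chr15:88819496-88819645 (plus strand) for Creld2, chr19:6046426-6046575 (plus strand) for Syvn1, chr10:75893232-75893381 (plus strand) for Derl3 and chr8:94386279-94386428 (plus strand) for Herpud1.
Hspa5: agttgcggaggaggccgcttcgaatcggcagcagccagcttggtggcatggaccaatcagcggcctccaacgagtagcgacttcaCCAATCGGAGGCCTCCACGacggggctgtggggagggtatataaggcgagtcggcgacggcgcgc
Hsp90b1: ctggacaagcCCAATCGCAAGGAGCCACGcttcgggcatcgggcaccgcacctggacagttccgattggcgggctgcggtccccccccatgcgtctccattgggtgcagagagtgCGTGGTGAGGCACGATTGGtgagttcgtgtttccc
Creld2: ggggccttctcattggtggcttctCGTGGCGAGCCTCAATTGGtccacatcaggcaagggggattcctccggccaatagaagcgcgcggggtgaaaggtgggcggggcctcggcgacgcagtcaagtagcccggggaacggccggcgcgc
Syvn1: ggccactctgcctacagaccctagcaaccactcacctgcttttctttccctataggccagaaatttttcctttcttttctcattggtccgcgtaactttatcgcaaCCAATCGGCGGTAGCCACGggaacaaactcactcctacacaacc
Derl3: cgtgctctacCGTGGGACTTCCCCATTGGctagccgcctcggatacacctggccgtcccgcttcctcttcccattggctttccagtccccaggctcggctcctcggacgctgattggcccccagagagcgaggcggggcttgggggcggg
Herpud1: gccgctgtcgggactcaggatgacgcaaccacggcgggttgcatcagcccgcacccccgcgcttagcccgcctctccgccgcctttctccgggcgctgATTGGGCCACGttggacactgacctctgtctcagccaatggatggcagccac
An ERSE match lay in the windows of 9 of the 29 genes (31.0%), against 0.137% of 27025 genes with a window. The 9 were Hspa5, Hsp90b1 with 2 matches, Dnajc3, Creld2, Calr, Canx, Pdia6, Syvn1 and Derl3. ERSE-II was found for Dnajb11 and Herpud1, against 0.0444% of all genes. The match of Dnajb11 lay downstream of the start. A match is a stretch of letters and not a measured binding site. Shares among the listed genes are those of a set chosen by name, which holds many known UPR targets. The part of these elements in the values of the mice was not tested. Of the 10 genes with either element other than Hspa5, 5 passed the correlation test with Hspa5 described with the mice. So did 8 of the 18 with a window and neither, and 0.772% of all genes with a positive r.

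The share of spots well above background ranged over the arrays from 46.6% to 51.3% in Cy5 and from 36.5% to 47.8% in Cy3. The arrays lay on 3 slides of 8, each with 4 mice per diet. The slides gave 0 of 18649 genes (0%) and 0 of 35 ER genes at an adjusted p under 0.05 in limma's F test with diet in the model, and the lowest unadjusted p among the 35 was 0.0263 (Derl3). The array of mouse GLU+GAL 4 stood apart, with an SD of its log2 ratios of 0.490 against at most 0.306 elsewhere. Mouse GLU+GAL 12 went against its label female, with probes of Ddx3y and Eif2s3y, both on the Y chromosome, above background and Xist not, the reverse of the other 23 arrays. All 10 hepatocyte markers listed were among the tested genes. No label says that the mice of a diet came from separate litters, so p-values measure the spread between these mice.

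No ER gene differed between the diets beyond the spread between mice. The widest differences were those of the co-chaperone Dnajb9, the small ER proteins Creld2 and Manf and the ERAD ligase Syvn1, whose means were 1.18- to 1.23-fold higher in GLU+GAL. The mean of Xbp1 was 0.883-fold that of GLU. In limma with Benjamini-Hochberg adjustment over 18649 genes, 0 of 35 ER genes passed an adjusted p of 0.05 (lowest 0.999), as did 0 of all genes (0%, lowest 0.523). At an unadjusted p under 0.05 there were 0 of 35 ER genes, against 803 of all genes (4.31%). The mean was higher in GLU+GAL for 23 of the 35 and for 50.8% of all genes, and the median log2 difference was 0.060 over the 35 and 0.0013 over all genes. The other limma fits, with slide as a block, with a variance trend and robust fit or with array weights, also gave 0 of 35 at the adjusted threshold. Array weights gave 2 of 35 at an unadjusted p under 0.05, Sel1l and Dnajb9. The share of all genes at that level was not counted in that fit, so the 2 are not set against it. With bulk RNA, fewer cells of a type and less RNA per cell cannot be told apart, here and below.

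**Figure D1:**
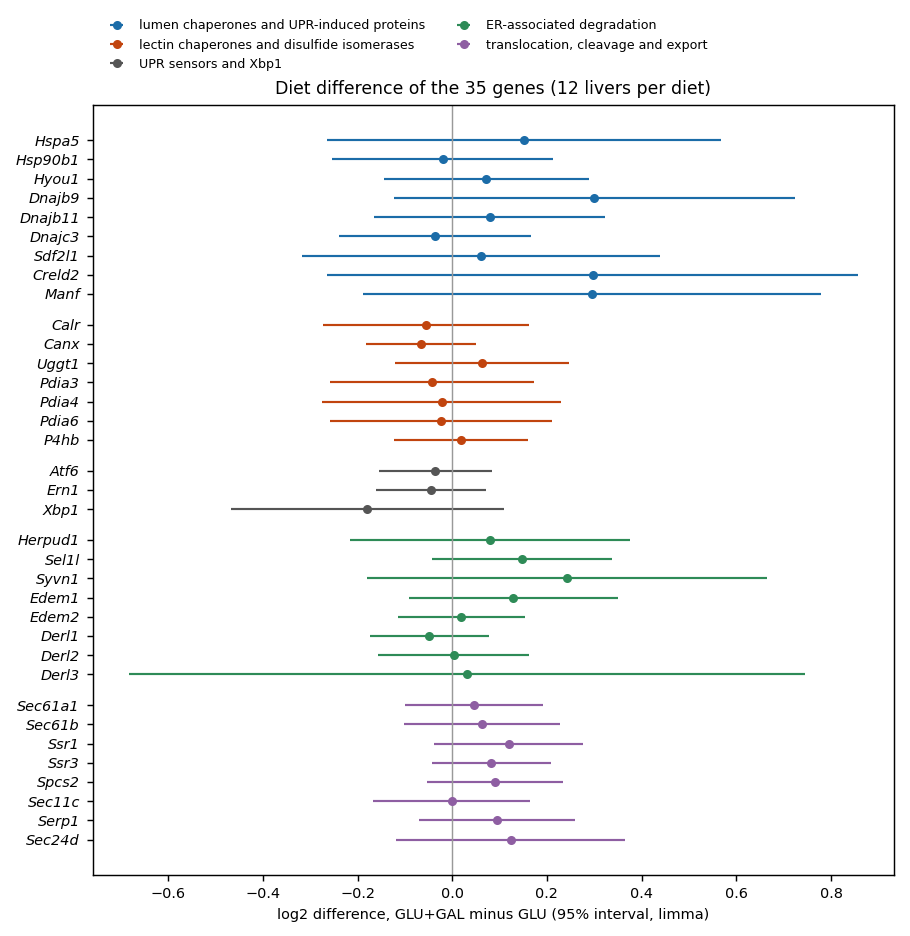
Difference of the mean log2 ratio, GLU+GAL minus GLU, for each of 35 ER genes, with its 95% interval from limma (12 mice per diet); colours give the role. Every interval includes 0, and that of Derl3 runs from -0.68 to 0.75.

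Among the lumenal chaperones and the small proteins induced beside them, 7 of 9 genes had a higher mean in GLU+GAL (50.8% of all genes). The differences ran from -0.04 to 0.30. Hspa5 ran from -0.46 through a median of 0.06 to 0.68 in GLU livers and from -0.82 through 0.26 to 1.19 in GLU+GAL livers. The GLU+GAL mice held both the 3 lowest and the 3 highest values, so the range of GLU lay inside theirs. The difference was 0.15 ± 0.20 (SE, n = 12 per diet; limma p 0.461). Dnajb9 (ERdj4), a co-chaperone that hands misfolded chains to ERAD, ran from -0.74 through -0.03 to 0.66 in GLU and from -0.48 through 0.04 to 1.49 in GLU+GAL. The medians were close, and the mice GLU+GAL 10 and GLU+GAL 1 lay above all others. Its difference was 0.30 ± 0.21 (SE; limma p 0.157), and was 0.19 without GLU+GAL 10, 0.17 with all its probes averaged and 0.039 with its other probe.

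Manf and Creld2 are small ER proteins that are secreted under stress. Manf ran from -0.87 through -0.16 to 0.54 in GLU and from -1.16 through 0.18 to 1.26 in GLU+GAL, a difference of 0.30 ± 0.24 (SE; limma p 0.221). Creld2 ran from -1.16 through -0.35 to 0.37 in GLU and from -1.45 through 0.15 to 1.52 in GLU+GAL, a difference of 0.30 ± 0.27 (SE; limma p 0.287). For both genes the groups overlapped over the whole range of GLU. Without mouse GLU+GAL 2, which had the highest value of Creld2 and Hspa5, the difference was 0.15 for Creld2, 0.20 for Manf and 0.063 for Hspa5. Without GLU+GAL 12, the mouse that went against its label female, it was 0.24 for Creld2, 0.25 for Manf and 0.093 for Hspa5. Leaving that mouse out changed the sign of 2 of the 35 ER genes.

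Of the ERAD genes, 7 of 8 had a higher mean in GLU+GAL (50.8% of all genes), with differences from -0.05 to 0.24. Syvn1 (HRD1), the ubiquitin ligase at the centre of ERAD, ran from -0.76 through -0.23 to 0.17 in GLU and from -0.83 through -0.20 to 1.34 in GLU+GAL. The medians were alike, and only the upper part of the GLU+GAL range lay beyond that of GLU, with 4 mice above its highest value. The difference was 0.24 ± 0.21 (SE; limma p 0.250), and 0.12 without GLU+GAL 2. Its partner Sel1l, the adaptor of the same complex, had the smallest p of the 35 genes, 0.124, at a difference of 0.15 ± 0.09 (SE), which was 0.094 without GLU+GAL 2. It ran from -0.55 through -0.17 to 0.19 in GLU and from -0.31 through -0.03 to 0.59 in GLU+GAL, with 9 of 12 GLU+GAL mice above the GLU median. Sel1l and Ssr1 were named for their small p after the values were seen.

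Derl3, a derlin of the ERAD channel, ran from -1.74 through -0.30 to 0.76 in GLU and from -2.23 through -0.15 to 1.11 in GLU+GAL. The difference of 0.03 ± 0.35 (SE; limma p 0.928) was small beside a spread that covered more than 3 log2 units in all 24 mice. Leaving out single mice moved it between -0.10 and 0.20.

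The translocation and export genes were higher in GLU+GAL for 7 of 8 (50.8% of all genes), with differences between -0.0011 and 0.12. Ssr1, a subunit of the translocon-associated complex, had the largest ratio of difference to error among them at 0.12 ± 0.08 (SE; limma p 0.130). Of the lectin chaperones and disulfide isomerases, 2 of 7 had a higher mean (50.8% of all genes), with differences from -0.07 to 0.06. The lowest limma p among these 7 was 0.255, and the counts by role were not tested. All 3 regulators had a lower mean in GLU+GAL. Xbp1 ran from -0.88 through -0.39 to 0.17 in GLU and from -1.14 through -0.47 to -0.05 in GLU+GAL. The groups overlapped broadly, with 5 of 12 GLU+GAL mice above the GLU median, and the difference was -0.18 ± 0.14 (SE; limma p 0.213). Atf6 differed by -0.04 ± 0.06 and Ern1 by -0.04 ± 0.06 (SE; limma p 0.540 and 0.438), and Atf6 was at 0.014 with Agilent's own processed signals, which moved the median of all genes by 0.04.

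The direction differed between slides. The median difference of the 35 genes was 0.07 on slide 1, 0.16 on slide 2 and -0.10 on slide 3, where 5 of 35 were higher in GLU+GAL. Hspa5 differed by 0.38, 0.49 and -0.42, Manf by 0.45, 0.85 and -0.42, and Creld2 by 0.45, 0.83 and -0.38 on slides 1, 2 and 3, with 4 mice per diet on each. Slide 3 held the mice GLU+GAL 3 and GLU+GAL 4, which were among the 3 with the lowest Hspa5. The difference between slides was not tested.

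**Figure D2:**
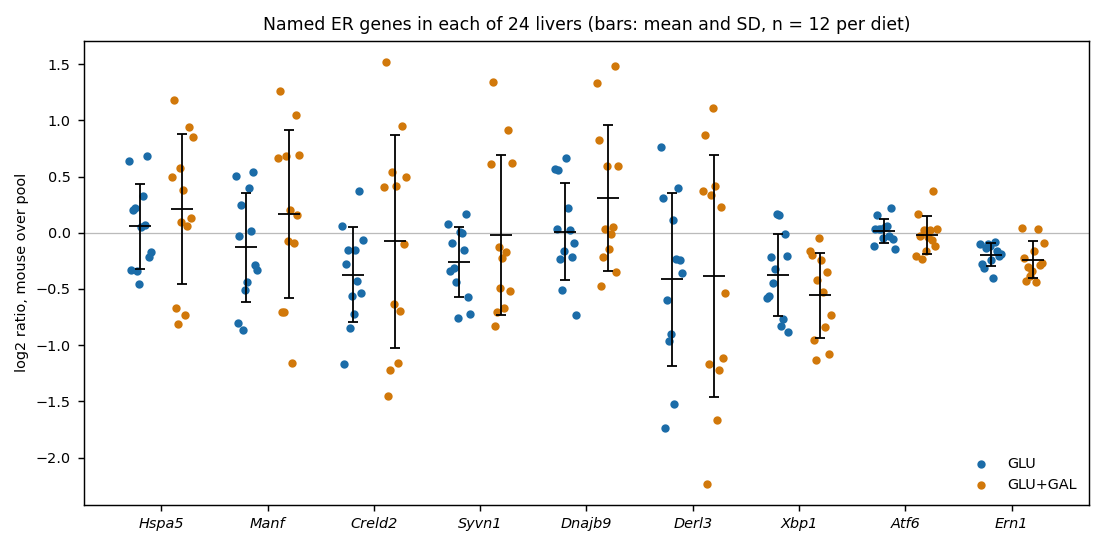
Log2 ratio of a mouse over the pool for 9 ER genes, 1 point per mouse (12 GLU in blue, 12 GLU+GAL in orange), with the mean and SD. The groups overlap for each gene; Derl3 spans 10.1-fold over the 24 mice and Canx, not drawn, 1.39-fold.

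These genes varied more between mice than most. The SD of the residuals after removing the diet means was above that of the median gene in 29 of 35 (50% of all genes by construction), with a median of 0.27 against 0.17. It was above the 95th percentile of all genes, 0.34, in 9 of 35 (5% of all genes). All tested genes served as the background, dim ones among them, and genes of similar signal were not compared apart. Derl3 varied most, with an SD of 0.94 and a 10.1-fold range from the lowest to the highest mouse. It was followed by Creld2 (SD 0.73, 7.83-fold), Manf (0.63, 5.36-fold), Dnajb9 (0.55, 4.66-fold), Syvn1 (0.55, 4.50-fold), Hspa5 (0.54) and Sdf2l1 (0.49, 4.17-fold), a partner of the lumenal chaperones. Herpud1, an ERAD scaffold, and Xbp1 completed the 9 with an SD of 0.38 and 0.37. At the other end were Canx (SD 0.13, 1.39-fold), the membrane-bound lectin chaperone, Ern1 (SD 0.14) and Atf6 (SD 0.14, 1.52-fold).

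The lowest values of Derl3 were those of GLU+GAL 3 and GLU 3. Secretory cells such as plasma cells and pancreatic acinar cells also express Derl3. Of 10 B and plasma cell markers, 6 were tested and Cd79a, Mzb1, Pou2af1 and Tnfrsf17 were not, being too dim. The mean log2 ratio of the 6 lay between -0.16 and 0.36 in GLU and between -0.31 and 0.19 in GLU+GAL. Among them Jchain, the joining chain of secreted antibodies, was the 1 of 6 with a higher mean in GLU+GAL (0.18 ± 0.09, SE; limma p 0.0466, adjusted p 0.999). Of 12 acinar markers 6 were tested, with Cpa1, Cpb1, Cela3b, Prss2, Pnlip and Try4 too dim, and their mean lay between -0.12 and 0.14 in all mice. The part of such cells in the values of Derl3 was not tested.

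The SD was larger in GLU+GAL than in GLU for 29 of 35 ER genes and for 63.4% of all genes, and without GLU+GAL 4 for 28 of 35 and for 51.2% of all genes. For Creld2 the SD was 0.95 against 0.42 and for Syvn1 0.71 against 0.31 (n = 12 per diet). A limma test of absolute deviations from the diet median, chosen after the values were seen, gave a larger spread in GLU+GAL at an unadjusted p under 0.05 for 2 of 35, Creld2 (p 0.00465) and Syvn1 (p 0.0341), against 2.15% of all genes. Neither passed adjustment over all genes (limma's adjusted p 0.9995 for both). Without GLU+GAL 4, limma's unadjusted p was 0.0579 for Creld2, 0.0435 for Syvn1 and 0.0310 for Hyou1. That of Edem2 was 0.0382, with the smaller SD in GLU+GAL (0.091 against 0.198). The share of all genes under 0.05 was not counted without that mouse.

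The ER genes varied together from mouse to mouse. All 34 others had a positive correlation with Hspa5 over the 24 mice, with a median Pearson r of 0.65 against -0.05 over all tested genes. In a permutation test with 100000 resamples, adjusted over 18648 genes, 16 of 34 passed with a positive r, against 144 of all genes (0.772%), and 0 passed with a negative r (0.236% of all genes). An r above 0.8 was reached by 7 of 34 and by 0.188% of all genes. With Spearman's rho 13 of 34 passed, where the share of all genes was not counted. Without GLU+GAL 2 alone, the only count here at 10000 resamples, 9 of 34 passed, against 0.349% of all genes. It was 8 of 34 (median r 0.62) against 0.424% without the 2 mice farthest from the median of Hspa5, GLU+GAL 2 and GLU+GAL 4. With diet and slide means removed it was 22 of 34 (median r 0.69) against 1.09%.

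**Figure D3:**
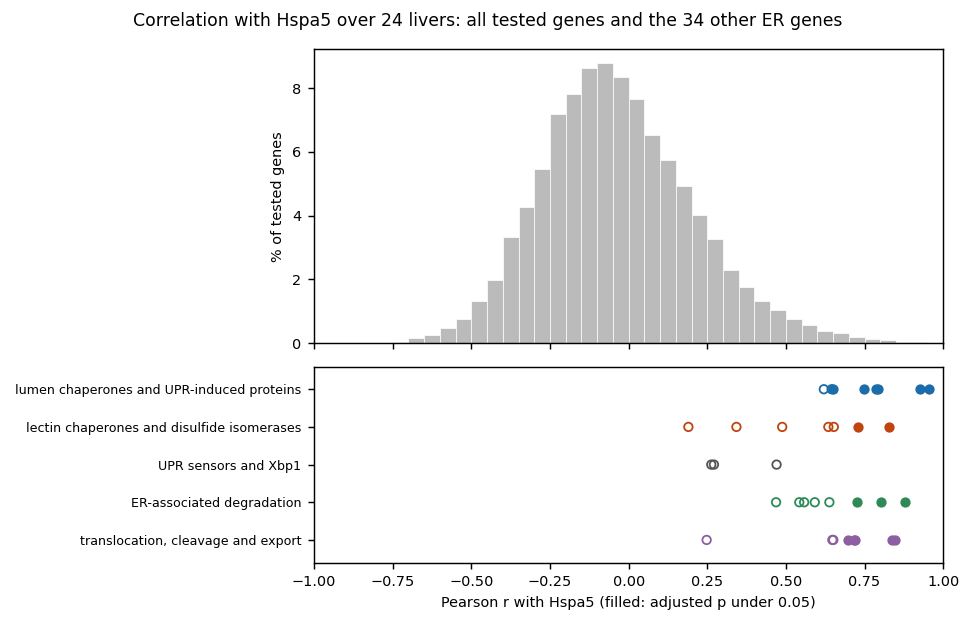
Upper panel, distribution of Pearson's r with Hspa5 over 24 mice for 18648 tested genes, in percent of genes. Lower panel, the 34 other ER genes by role, filled where the adjusted permutation p was under 0.05; all 34 lie above 0.

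Lumenal chaperones and the small UPR-induced proteins followed Hspa5 most closely, with 6 of 8 past the threshold (0.772% of all genes) and a median r of 0.77. Manf had the highest r of all 18648 genes, 0.96 (rho 0.97), with a permutation p of 1e-05, the smallest that 100000 resamples can give, and an adjusted p of 0.00381 (0.00504 for rho). It was 0.95 without the 2 farthest mice and 0.98, 0.96 and 0.98 within slides 1, 2 and 3. Creld2 had an r of 0.93 (rho 0.91) at the same p-values, 0.90 without those 2 mice and 0.91, 0.92 and 0.96 within slides. Hyou1 (Grp170), the nucleotide exchange factor of Hspa5, had an r of 0.79, and Dnajb11 (ERdj3), a co-chaperone that brings it substrates, 0.79. Hsp90b1 (Grp94), the Hsp90 of the ER, had an r of 0.75 and Dnajc3 (p58IPK), another co-chaperone, 0.65 with an adjusted permutation p of 0.0484. Sdf2l1 (r 0.65, adjusted permutation p 0.0572) and Dnajb9 (r 0.62, adjusted permutation p 0.0859) did not pass.

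Of the ERAD genes 3 of 8 passed, against 0.772% of all genes with a positive r. Syvn1 had an r of 0.88 (rho 0.87) and Sel1l of 0.80 (rho 0.78), both at a permutation p of 1e-05, and Edem1, a mannosidase-like protein that marks glycoproteins for removal, 0.73. Without the 2 farthest mice these were 0.86, 0.74 and 0.65. Derl2 (0.64), Derl3 (0.59), Herpud1 (0.56), Derl1 (0.54) and Edem2 (0.47) did not pass.

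Of the translocation and export genes 5 of 8 passed, against 0.772% of all genes with a positive r. They were Sec61a1 (r 0.85), which forms the channel, Sec24d (0.84), a cargo-binding subunit of the COPII coat, Ssr3 (0.72) of the translocon-associated complex, Sec61b (0.72) of the channel and Serp1 (0.70), which stabilises membrane proteins during translocation. Spcs2 (0.65), of the signal peptidase, missed the threshold at an adjusted permutation p of 0.0501, and Ssr1 (0.65) at 0.0602. Sec11c, a catalytic part of the signal peptidase, had an r of 0.25 and a permutation p of 0.242 before adjustment. Its paralogue Sec11a, not among the genes described here, had an r of 0.65 and missed the threshold at an adjusted permutation p of 0.0501. Among lectin chaperones and disulfide isomerases Uggt1 (0.83), the folding sensor that re-glucosylates unfolded glycoproteins, and Pdia3 (0.73), the isomerase that works with the lectins, passed. Pdia6 (0.65), Pdia4 (0.63), Calr (0.49), Canx (0.34) and P4hb (0.19) did not.

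None of the 3 regulators passed. Atf6 had an r of 0.47 (rho 0.38; adjusted permutation p 0.369), Ern1 of 0.27 (rho 0.23; 0.756) and Xbp1 of 0.26 (rho 0.24; 0.767). Xbp1 itself varied 2.46-fold over the mice. Within slides 1, 2 and 3 the r of Xbp1 was 0.014, -0.44 and 0.66, and without GLU+GAL 4 it was 0.14 over 23 mice. GLU 6, the mouse with the highest Xbp1 at 0.17, had the lowest Hspa5 of the GLU group at -0.46. A p above the threshold does not show that a gene varied independently of Hspa5.

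**Figure D4:**
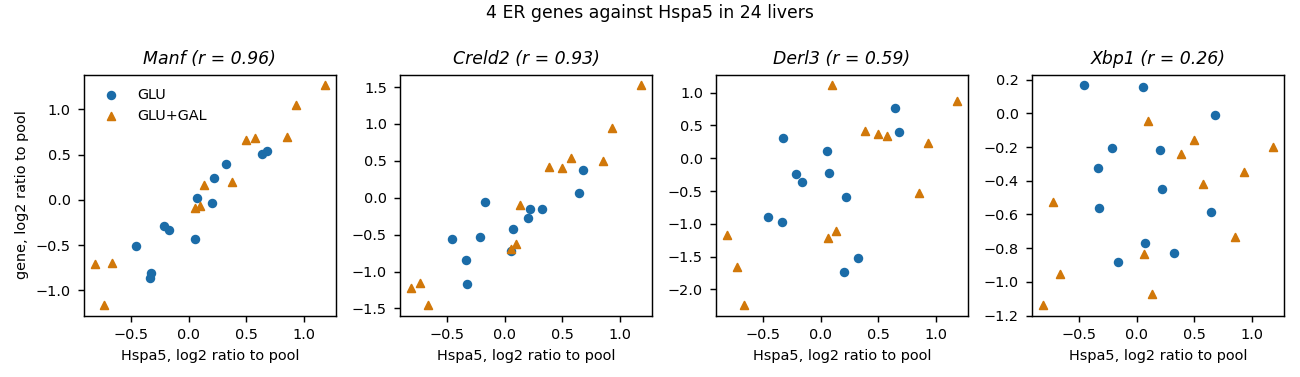
Log2 ratio of Manf, Creld2, Derl3 and Xbp1 against that of Hspa5, 1 point per mouse (circles GLU, triangles GLU+GAL). Manf and Creld2 lie along a line (r 0.96 and 0.93), Derl3 scatters around one (0.59) and Xbp1 shows little order (0.26).

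Within the diets, the median r of the 34 genes with Hspa5 was 0.46 in GLU, where 0 of 34 and 0 of all genes passed, and 0.81 in GLU+GAL, where 7 of 34 and 0.225% of all genes passed (12 mice each; permutation test). Manf had an r of 0.92 and 0.98 in the 2 diets, Syvn1 of 0.85 and 0.89, and Sel1l of 0.83 and 0.80. The r of Dnajb11 was 0.45 and 0.94, that of Pdia3 0.37 and 0.93 and that of Sdf2l1 0.25 and 0.87. The difference between the diets was not tested, and Hspa5 itself had an SD of 0.38 in GLU and 0.67 in GLU+GAL. Within slides 1, 2 and 3 the median r was 0.83, 0.57 and 0.73 over 8 mice each. There, 0 of 34 and 0 of all genes passed, and 29 of 34 had a positive r on every slide.

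The 35 genes were also correlated with each other, given here as a description without a test. Of their 595 pairs 310 had an r above 0.5 (52.1%), against 4.38% of the pairs among all genes without a missing value, and the median was 0.52 against 0.01. The first principal component of the 35 genes held 53.5% of their variance. The 9 lumenal genes were closest to each other, with a median r of 0.78, followed by the lectin and isomerase genes at 0.61 and the translocation genes at 0.60. ERAD genes had a median r of 0.41 and the 3 regulators of 0.15. The closest pairs outside Hspa5 were Creld2 with Manf (0.93), Ssr3 with Serp1 (0.91), Dnajb11 with Dnajc3 (0.91), Hsp90b1 with Dnajb11 (0.89), Dnajb11 with Pdia3 (0.88), Hsp90b1 with Pdia3 (0.88) and Sel1l with Syvn1 (0.87). Calr was close to Pdia4 (0.84), and Derl3 to Pdia6 (0.84).

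Some members stood outside the shared pattern. Against the median of the other 34 genes in each mouse, the r was 0.92 for Manf, 0.91 for Hspa5 and 0.89 for Creld2, and 0.10 for Xbp1, 0.25 for Atf6 and 0.35 for Ern1. Xbp1 had an r above 0.5 with 0 of the other 34 genes and below 0 with 11, and Atf6 above 0.5 with 2 and below 0 with 9. The lowest r of any pair was that of Atf6 with Sec11c, -0.43. P4hb, the abundant disulfide isomerase that also serves collagen prolyl hydroxylase, and Canx had an r above 0.5 with 8 and 3 of the other genes. Dnajb9 had an r above 0.5 with 9, Herpud1 and Derl1 with 8 each, Sec11c with 6 and Ern1 with 1. Atf6 and Ern1 also varied little between mice, with a residual SD at percentiles 28.8 and 26.1 of all genes. The part of that small spread in their low r was not tested.

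The same mice stood high or low across roles. GLU+GAL 2 had the highest value of all 24 mice in 20 of the 35 genes and was above the gene's median in 33. GLU+GAL 12, GLU 10 and GLU 1 were above it in 32, 31 and 30 genes. GLU+GAL 3 was above the median in 0 of 35, GLU+GAL 4 and GLU+GAL 8 in 2 each and GLU 6 in 4. The median log2 ratio of the 35 genes ran from -0.28 to 0.20 in GLU and from -0.32 to 0.41 in GLU+GAL. The array of GLU+GAL 4 is the one that stood apart. Without it 18 of 34 passed with Hspa5 at 10000 resamples, against 0.719% of all genes.

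**Figure D5:**
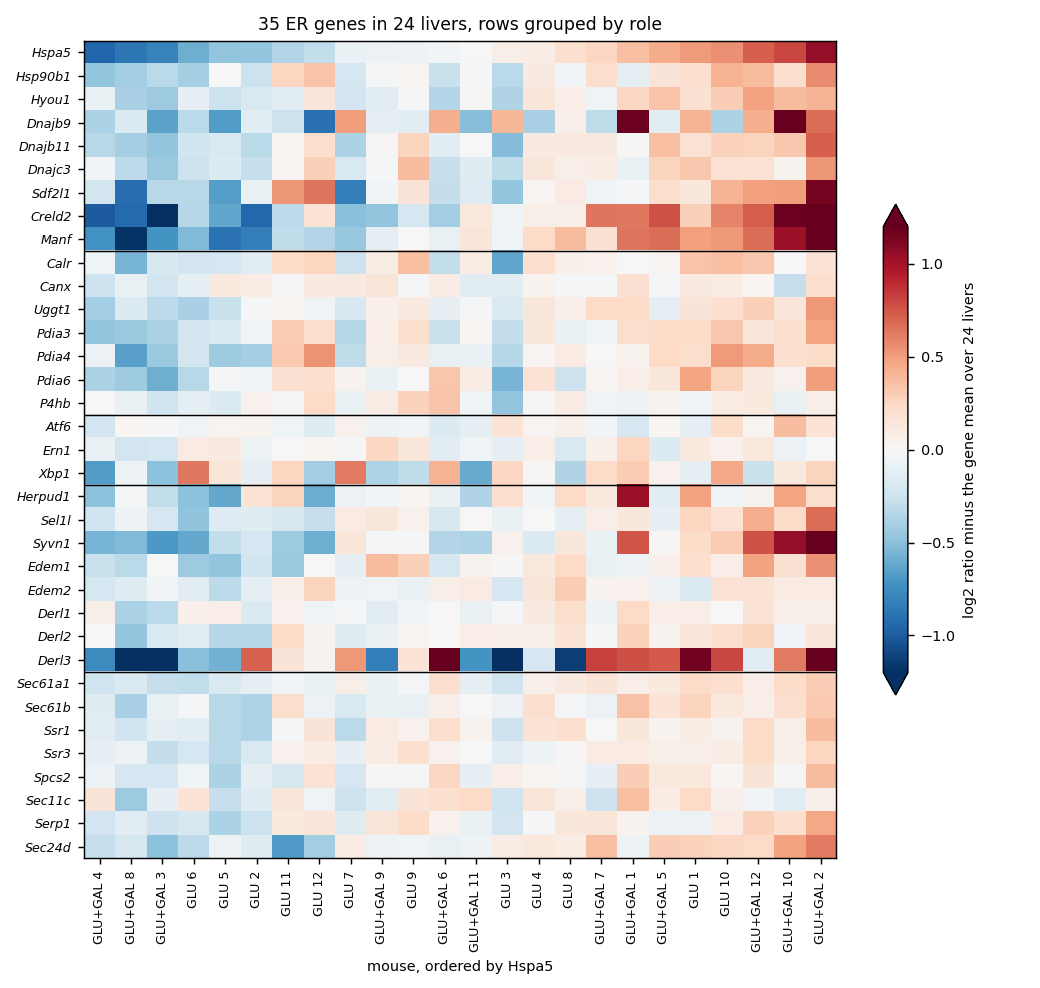
Log2 ratio of 35 ER genes (rows, grouped by role) in 24 mice (columns, ordered by Hspa5), each minus the mean of its gene; colours end at -1.2 and 1.2. Rows such as Manf, Creld2 and Syvn1 (r 0.96, 0.93 and 0.88) shade from blue to red with Hspa5, and those of P4hb, Sec11c, Xbp1 and Ern1 (0.19, 0.25, 0.26 and 0.27) show little of this order.

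Of the genes outside the 35, those most like Hspa5 over the 24 mice were Sec23b (r 0.94), a COPII coat subunit, Tmed3 (0.91), a cargo receptor, Sec22b (0.91), a SNARE of ER to Golgi transport, Hspa13 (0.91), an Hsp70 of the microsomes, and Uso1 (0.90), a vesicle tether. They were followed by Ufl1 (0.90), the ligase of the UFM1 modifier, Alg12 (0.89), a mannosyltransferase of the N-glycan precursor, and Tfg (0.89), which acts at ER exit sites. Next came Gfpt1 (0.88) and Gmppb (0.87), enzymes on the routes to sugar nucleotides. All 10 had a permutation p of 1e-05 and kept an r of at least 0.84 without the 2 farthest mice. The lowest r belonged to Thap3 (-0.81), a probe without a gene name (-0.76), Tmem60 (-0.76), A930005H10Rik (-0.76) and Kiz (-0.75).

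Counts in the wider lists stand against the 0.772% of all genes that passed with a positive r. With lists this short, a count of 0 does not set a list apart from all genes. Of 40 tested genes of translocation, glycosylation and export 8 passed with a positive r. They were led by Sec23b, Surf4 (0.84), a cargo receptor, and Srp68 (0.79), of the signal recognition particle. Of 22 further folding genes 2 passed, Txndc5 (0.68) and Ero1l (0.67), both of disulfide formation, and of 19 further ERAD genes Ubxn4 (0.84) and Vimp (0.76). The median r of these lists was 0.55, 0.45 and 0.27. Of 14 genes of the PERK branch and ATF4 targets 0 passed, with a median r of 0.04, and Eif2ak3, which encodes PERK, had an r of 0.60 (adjusted permutation p 0.109). Hsph1 (0.67) was the 1 of 16 cytosolic and mitochondrial chaperones that passed. No gene passed among 26 plasma proteins of hepatocytes (median r 0.03), 12 lipogenic, 12 fasting-responsive and 13 clock genes or the marker lists of 12 cell types and neighbouring tissues.

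Between the diets, 0 genes of the wider lists passed the adjusted threshold in limma. At an unadjusted p under 0.05, against 1.65% of all genes higher and 2.66% lower in GLU+GAL, the folding list had Fkbp11 higher (0.23 ± 0.09, SE) and Prdx4 lower (-0.14 ± 0.06). The PERK and ATF4 list had Trib3 higher (0.45 ± 0.18) and Nupr1 lower (-0.20 ± 0.09), and the cytosolic chaperones Hspb1 (-0.60 ± 0.13) and Hsp90ab1 (-0.14 ± 0.07) lower. The translocation and export list had 0 of 40. Of the 26 plasma proteins, the cargo of this machinery, 16 were lower at that level and 0 higher, with a median difference of -0.16. Fgb, a fibrinogen chain, had the smallest p of these at a difference of -0.26 ± 0.06 (SE; limma's adjusted p 0.717). At the same level 4 of 10 hepatocyte markers were lower (Hnf4a and, shared with the plasma proteins, Apoa1, Serpina1a and Alb), as were 5 of 12 Kupffer cell markers (Marco, C1qc, Clec4f, Csf1r and C1qa), whose median difference was -0.21. The mean of the 12 Kupffer markers lay between -0.17 and 0.67 in GLU and between -0.57 and 0.26 in GLU+GAL, and its part in the plasma protein values was not tested.

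Further probes past the filter were present for 21 of the 35 genes. For 9 of these every further probe had an r above 0.7 with the one used, and for 8 at least 1 had an r under 0.5. The 2 other probes of Hspa5 had an r of 0.95 with the one used, that of Manf 0.98, and those of Xbp1 0.86 and 0.83. The other probes of Xbp1 had an r of 0.18 and 0.16 with Hspa5, below the 0.26 of the one used, and differed between diets by -0.18 and -0.16. The 2 other probes of Sel1l had an r of 0.39 and 0.29 with the one used, of 0.44 and 0.24 with Hspa5, and diet differences of 0.051 and 0.076 against the 0.15 given for it. That of Edem1 had an r of 0.50 with the one used and of 0.24 with Hspa5, against the 0.73 given for it. Probes also disagreed for Dnajb11, where 1 of 2 others had an r of -0.25 with the one used, for Sec61a1, where 1 of 2 had -0.02, and for P4hb (0.19), Derl1 (0.24), Edem2 (0.32) and Ern1 (0.34). With Hspa5 the other probes of Dnajb11 had an r of -0.43 and 0.71, against the 0.79 given for it. Those of Sec61a1 had -0.0094 and 0.67 against 0.85, that of Derl1 -0.10 against 0.54 and that of Derl2 0.30 against 0.64. With all probes of a gene averaged, 14 of 34 genes passed with Hspa5, against 0.515% of all genes.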

How the data were processed

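The deposited scanner files gave spot intensity values of both dyes, which the submitters' processing notes credit to Agilent Feature Extraction (10.7.3.1). The authors' log10 ratio in the same deposited files was left unused. A table of log2 values deposited by the authors (29287 rows, every column with a median of 8.6) served as an alternative; the sources used here do not give its scaling. Mean signals were corrected with the local median background by normexp (offset 50), and log2 Cy5 over Cy3 was normalised by loess within arrays, control spots having weight 0 (limma 3.58.1, R 4.3.3). A gene was tested where its probe was well above background in Cy5 on at least 6 arrays of 1 diet.

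Diets were compared with lmFit and eBayes, 2-sided, over all 24 arrays. Correlations were tested by 2-sided permutation of the mice (numpy 2.4.6; exact for 8 mice; 10000 resamples when leaving out single mice), with 147 genes, no ER gene among them, filled by their mean where a spot was missing. Both steps were tested on simulated data. Given with values were the 6 ER genes with the largest diet difference, the 6 with the largest spread, the 3 most and least like the others, Hspa5 and Xbp1, 10 and 5 further genes with the highest and lowest r, and up to 4 genes a wider list. The members and lists were chosen with earlier results of these data known. Same-numbered mice of the diets were not treated as pairs in the fit reported. The r between them ran from -0.38 to 0.521, with 8 of 12 above 0.1, and 2 mice matched best by number. Of these pairs 6 shared a slide, so the values cannot tell whether the mice were paired. Alternatives covered background, normalisation, Cy5 alone, filter, probe choice, blocks, array weights and left-out arrays. The diet result of the further ERAD genes before adjustment is not reported here.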

Additional observations from a re-analysis of the deposited data

How the results depend on the processing

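The count of 0 ER genes past the adjusted diet threshold held under all 40 alternatives, and leaving out single mice gave 0 to 1 genes past it over the whole array (1 without GLU 3). ER genes at an unadjusted p under 0.05 numbered 0 in the fit reported, 1 with Agilent's processed signals or Cy5 alone, 2 with the authors' value table or array weights, and 1, 5 and 0 within slides 1, 2 and 3. The share of all genes at that level was 4.31% in the fit reported and was not counted for the alternatives. The median difference ranged from 0.02 to 0.09 without single mice. Of all 35 ER genes, 7, 5 and 22 had the other sign within slides 1, 2 and 3. Among the 11 ER genes recomputed under every alternative, differences that changed sign, none past a threshold, were those of Atf6 (0.014 with Agilent's processed signals, 0.046 and 0.031 within slides 1 and 2), Derl3 (-0.49 within slide 1, -0.013 within slide 3, and -0.10 to 0.20 without single mice) and, within slide 3, Hspa5 (-0.42), Dnajb9 (-0.14), Creld2 (-0.38), Manf (-0.42), Syvn1 (-0.22), Ern1 (0.0056) and Ssr1 (-0.045); the cause was not tested.

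Percentages beside the next counts are the shares of all genes that passed with a positive r. The 16 of 34 genes that passed with Hspa5 (0.772%) became 11 with Agilent's processed signals (0.408%). The count was 13 with median centring (0.365%) or Cy5 alone (0.574%) and 14 without a filter (0.275%) or with probes averaged (0.515%). It was 15 without background subtraction (0.74%), 17 with the authors' value table (0.789%) and 18 with the stricter filter (0.956%). Without single mice, at 10000 resamples, 9 to 18 passed, with shares of 0.349% to 0.794% (9 and 0.349% without GLU+GAL 2). The count was 11 (0.542%) without both GLU+GAL 4 and GLU+GAL 12, an alternative chosen after seeing the data. It was 8 (0.424%) without the 2 farthest mice, 7 (0.225%) within GLU+GAL and 0 (0%) within GLU or any slide, where fewer mice entered. The median r of the 34 genes stayed between 0.46 and 0.83 throughout. With the replicate number as a block, on the 12 differences between same-numbered mice, 4 passed (0.156% of all genes, median r 0.75). The block gave 0 ER genes between diets. Correlations that turned negative were those of P4hb (-0.0029 with Cy5 alone, -0.040 within slide 2), Canx (-0.47), Ern1 (-0.10) and Xbp1 (-0.44) within slide 2, Sec11c (-0.14) within slide 3, and Ern1 (-0.067) and Xbp1 (-0.11) within GLU. The number of arrays, 24, limits the precision of all values.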
